A study of Mus musculus with 36 samples.

Results

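Loss of Klf15 in the mouse heart was examined at midnight, from RNA of the heart apex labelled 12 am. The 3 libraries from mice labelled cK15, whose genotype label reads KLF15 KO, were set against the 3 libraries from control mice of the same time. These are 6 of the 36 libraries of a study of both genotypes that took heart apex every 4 h over the day, 3 libraries for each genotype at each of 6 times. Every gene entry of the tables is a member, 23352 in all, and 10600 of them were expressed highly enough to be tested. The cK15 libraries are numbered 1, 3 and 4 and the control libraries 2, 3 and 4, and values are given in that order.

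The control mice had an alpha-MHC cre transgene, in which the alpha myosin heavy chain promoter drives the recombinase in heart muscle cells. The labels used here do not give the Klf15 allele of cK15 mice, the deleted part of the gene or a cre transgene for them. Both groups were C57BL/6J males of 11 to 12 weeks under alternating 12 h of light and 12 h of darkness. The sources used here do not give the clock time at which light began. Whether each library of a group is a separate animal is not stated in the labels. The p-values therefore set a difference only against the spread of libraries within the 12 groups of genotype and time. Part of that spread may be technical.

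Klf15 is a zinc-finger transcription factor of the Kruppel-like family, whose members bind GC-rich and CACCC sequences. In liver, skeletal muscle and heart it is known as an activator of genes that break down amino acids and oxidise lipid, and it responds to glucocorticoids and to the circadian clock. Heart muscle draws most of its energy from fatty acids, with lactate, glucose, ketone bodies and branched-chain amino acids as further fuels. Branched-chain amino acids (leucine, isoleucine and valine) are first transaminated by BCAT enzymes, and their ketoacids are then committed to oxidation by the branched-chain ketoacid dehydrogenase complex.

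Expression was given as FPKM, sequenced fragments scaled to the length of the gene and to the total of the library, so levels of different genes are compared per length. The FPKM of the 6 libraries summed to between 578272 and 684912, and 10350 to 10768 genes reached 1 FPKM. One library of each genotype stood apart from the others: Myl2, the ventricular myosin light chain, was at 35773 FPKM in cK15 replicate 1 and 32970 FPKM in control replicate 2, and at 56049 to 68419 FPKM in the other 4 libraries. The 10 most abundant genes made up 17.1% of the summed FPKM in cK15 replicate 1 and 16.7% in control replicate 2, and 23.0% to 25.0% in the other libraries. In those other 4 libraries low values were whole multiples of a smallest step, here read as 1 fragment (more fragments if the step is a multiple). The steps placed the depth of cK15 replicate 4, control replicate 3 and control replicate 4 at 1.21, 1.18 and 1.05 times that of cK15 replicate 3. No such common step was found for cK15 replicate 1 or control replicate 2, so their relative depth was not derived.

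The targeted gene was checked first. Klf15, on chromosome 6 at 90461043 to 90491803 (GRCm38), was listed at 0 in all 3 cK15 libraries, against 2.803, 0.777 and 1.45 FPKM in the control libraries. Each control library lay above each cK15 library (limma adjusted p = 0.000743). In steps of 1 fragment, Klf15 had 0 and 0 in cK15 replicates 3 and 4, against 6 and 10 in control replicates 3 and 4, so its level in control hearts rests on few fragments. In each group of genotype and time the library with the lowest Myl2 was taken as a library of low Myl2, 12 in the series. This set was picked from the expression values. The adjusted p of Klf15 was 0.0966 with these 12 left out, and 0.0791 in a fit of the 6 libraries of midnight alone. An exact 0 in these tables is not always an absence, since Ttn, which encodes titin of the sarcomere, also stood at 0 in all 6 libraries.

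At midnight 129 of the 10600 tested genes differed between cK15 and control hearts at a limma adjusted p under 0.05, which is 1.22% of those tested. Of these, 117 were lower in cK15 (1.1%) and 12 were higher (0.113%). At an unadjusted p under 0.05 there were 768 genes (7.25%). In 823 tested genes all cK15 libraries lay below all control libraries (7.76%), and in 371 all lay above (3.5%). All 129 genes past the threshold were among these. Lack of overlap, where given below for a gene past the threshold, therefore describes its values and is no further support. The lower genes differed by -0.34 to -4.15 on the log2(FPKM + 1) scale with a median of -0.91, and 52 of them by at least 2-fold, whereas 3 of the 12 higher genes reached 2-fold. The median over all tested genes was -0.03. Adding 1 before taking logarithms makes the fold change of weakly expressed genes smaller than the ratio of their FPKM. The number of higher genes depended on single libraries: it was 7 without cK15 replicate 1, 6 without cK15 replicate 3, 7 without cK15 replicate 4 and 4 without control replicate 3. Fitted on the 6 libraries of midnight alone, 65 genes passed, and 24 of the 64 genes chosen for naming missed the threshold there. Those described below include Gstm1 (adjusted p = 0.127), Acss1 (0.239), Gpam (0.0666), Suclg2 (0.238) and Plekhh1 (0.0869). The largest limma adjusted p of named genes in that fit were those of Cyfip2 (0.679), Klc2 (0.552), Ehd4 (0.463) and Ehbp1l1 (0.364).

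**Figure D1:**
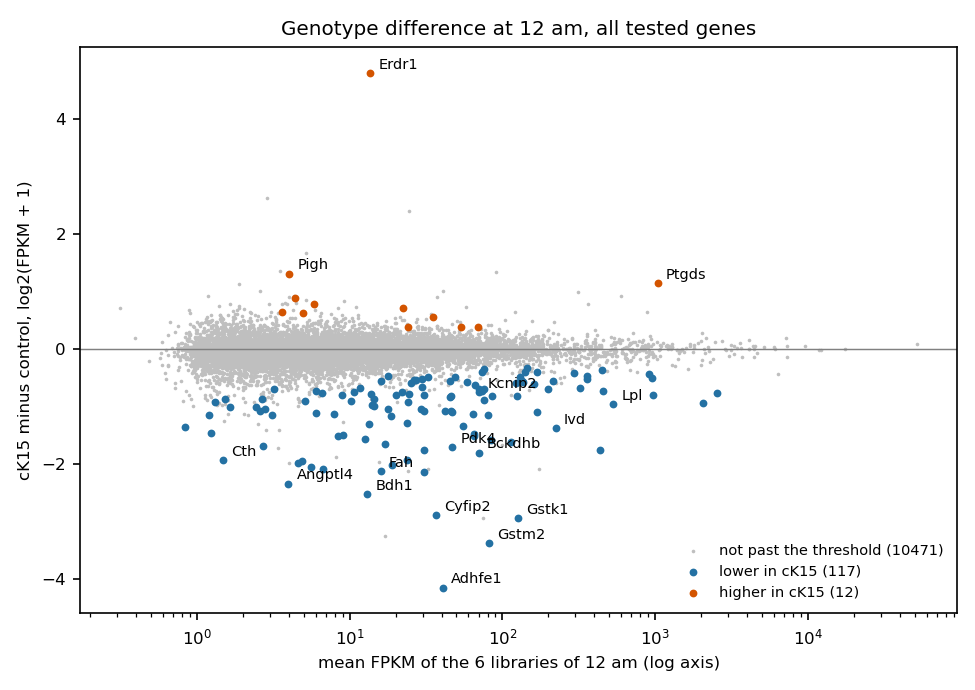
Difference between cK15 and control hearts at 12 am on the log2(FPKM + 1) scale (vertical axis) against the mean FPKM of the 6 libraries (horizontal log axis) for the 10600 tested genes, with the 117 lower genes in blue and the 12 higher genes in orange. Most coloured points lie below 0, with Adhfe1 at -4.15 the lowest, and the difference of Erdr1, listed at 0 in every control library, depends on the constant added before logarithms.

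Adhfe1, a mitochondrial enzyme that oxidises 4-hydroxybutyrate while reducing 2-oxoglutarate, had the lowest fold change of all genes past the threshold. It was at 3.66, 3.28 and 3.26 FPKM in cK15, against 95.6, 69.5 and 68.3 FPKM in control (log2 fold change -4.15, SE 0.20, limma adjusted p = 1.71e-15). The cK15 values lay close together and every control value was many times higher. Gstm2, a mu-class glutathione transferase, was at 16.7, 14.7 and 10.04 FPKM in cK15, against 141, 145 and 163 FPKM in control (log2 fold change -3.37, SE 0.13, limma adjusted p = 2.11e-17). Gstk1, the kappa-class transferase of mitochondria and peroxisomes, was at 23.7, 33.1 and 28.8 FPKM in cK15, against 207, 242 and 222 FPKM in control (log2 fold change -2.94, SE 0.14, limma adjusted p = 1.71e-15). In bulk tissue fewer cells of a type and less RNA per cell cannot be told apart, and this holds for each difference given here. Adhfe1 lies on chromosome 1 at 9547948 to 9577970 and overlaps 2610203C22Rik at 9560832 to 9631092, which was also among the 12 lowest genes at 0.836, 1.503 and 2.49 FPKM in cK15, against 10.4, 8.42 and 9.76 FPKM in control (log2 fold change -2.06, SE 0.20, limma adjusted p = 3.01e-08). The sources used here do not say whether the counting used the strand of the reads, so reads in such overlaps cannot be assigned to either gene.

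Cyfip2, which encodes a WAVE complex subunit of actin branching, was the fourth lowest gene and varied widely within cK15. It was at 2.69, 3.404 and 33.5 FPKM in cK15, against 72.03, 51.9 and 57.6 FPKM in control (log2 fold change -2.89, SE 0.71, limma adjusted p = 0.0333). Fndc9, a fibronectin type III domain gene that lies inside Cyfip2 on chromosome 11, showed the same split of cK15 libraries, at 0.73, 0.619 and 6.41 FPKM in cK15, against 14.1, 8.28 and 10.3 FPKM in control (log2 fold change -2.09, SE 0.52, limma adjusted p = 0.0333). In both genes cK15 replicate 4 stood far above the other cK15 libraries and closer to the control values, below all of them. Leaving out any one library other than cK15 replicate 4 lost the call of both genes, with adjusted p between 0.0841 and 0.253 for Cyfip2 and between 0.0617 and 0.282 for Fndc9. Without the 12 libraries of low Myl2 the limma adjusted p was 0.375 for Cyfip2 and 0.311 for Fndc9. Cyfip2 also missed the threshold with a replicate block (0.0713). Fndc9 also missed it with a pseudocount of 0.1 (0.126), with no filter (0.0697) and in the fit of the 6 libraries (0.186).

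Bdh1, which interconverts the ketone bodies 3-hydroxybutyrate and acetoacetate, was at 2.202, 3.41 and 3.92 FPKM in cK15, against 19.4, 22.1 and 27.2 FPKM in control (log2 fold change -2.53, SE 0.41, limma adjusted p = 0.000197). Oxct1, which activates acetoacetate for oxidation, was at 959, 837 and 775 FPKM in cK15, against 869, 882 and 895 FPKM in control and the groups overlapped (log2 fold change -0.05, SE 0.094, limma adjusted p = 1.00). In the list of hydroxyacid and ketone body enzymes, 2 of 7 tested genes fell, Adhfe1 and Bdh1, and none rose, against 1.1% lower among all tested genes.

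The region around the start of transcription is shown for Gstm2, Gstk1, Cyfip2 and Bdh1, the lowest genes past the threshold with an entry in the RefSeq promoter table of GRCm38.p6, to let the sequence be read beside the expression values. Each window runs from 250 bases before the start to 50 after it, on the strand of the gene, and capitals mark the letters CACCC or, where the motif lies on the other strand, GGGTG.
Gstm2, chr3:107986371-107986670, minus strand: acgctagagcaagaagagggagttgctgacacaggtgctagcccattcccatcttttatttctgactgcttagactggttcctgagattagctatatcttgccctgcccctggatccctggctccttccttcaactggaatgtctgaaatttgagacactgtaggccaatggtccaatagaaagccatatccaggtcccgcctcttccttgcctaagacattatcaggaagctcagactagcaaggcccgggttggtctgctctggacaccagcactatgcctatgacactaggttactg
Gstk1, chr6:42245685-42245984, plus strand: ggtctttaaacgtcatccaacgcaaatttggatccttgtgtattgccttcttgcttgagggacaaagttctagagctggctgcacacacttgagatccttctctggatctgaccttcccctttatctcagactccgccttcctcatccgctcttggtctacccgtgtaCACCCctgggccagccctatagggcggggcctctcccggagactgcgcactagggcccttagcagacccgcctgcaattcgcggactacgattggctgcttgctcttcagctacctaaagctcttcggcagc
Cyfip2, chr11:46312309-46312608, minus strand: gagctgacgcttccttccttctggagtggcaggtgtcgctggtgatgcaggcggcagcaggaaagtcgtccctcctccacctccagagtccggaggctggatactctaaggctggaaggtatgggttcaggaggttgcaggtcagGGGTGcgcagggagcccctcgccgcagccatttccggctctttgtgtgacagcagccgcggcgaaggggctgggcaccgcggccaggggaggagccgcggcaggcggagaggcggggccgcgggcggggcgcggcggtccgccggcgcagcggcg
Bdh1, chr16:31422047-31422346, plus strand: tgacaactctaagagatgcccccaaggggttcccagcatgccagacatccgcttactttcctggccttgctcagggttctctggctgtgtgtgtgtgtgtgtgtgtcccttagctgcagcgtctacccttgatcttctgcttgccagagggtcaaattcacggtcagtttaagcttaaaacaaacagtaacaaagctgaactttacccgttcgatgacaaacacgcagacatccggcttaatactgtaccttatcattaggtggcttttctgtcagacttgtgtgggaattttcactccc
The window of Gstk1 held 1 CACCC, that of Cyfip2 held 1 GGGTG, and those of Gstm2 and Bdh1 held neither. For Bdh1 the table lists 2 windows, and the first was used. Across genes, the motif on either strand was in 65 of the 89 lower genes with a window (73.0%), in 6 of 9 higher genes (66.7%), in 4970 of 7945 tested genes (62.6%) and in 56.7% of all 27025 windows. A match is a description of these letters and not evidence of binding.

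RNA of many genes of branched-chain amino acid breakdown was lower in cK15 hearts at midnight. Of 28 tested genes of the pathway, from 29 listed, 17 fell in cK15 hearts and none rose, against 1.1% lower among all tested genes, with a median of -0.59 over the 28 against -0.03 over all tested genes. Bcat2, the mitochondrial transaminase that starts the pathway, was at 25.6, 29.5 and 38.1 FPKM in cK15, against 79.3, 80.2 and 78.6 FPKM in control (log2 fold change -1.34, SE 0.11, limma adjusted p = 8.22e-10). RNA of the ketoacid dehydrogenase complex was lower for the subunits that are its own. Bckdhb, the E1 beta subunit, was at 39.3, 26.9 and 26.6 FPKM in cK15, against 126, 104 and 96.7 FPKM in control (log2 fold change -1.80, SE 0.14, limma adjusted p = 1.35e-10). Bckdha, the E1 alpha subunit, was at 115, 102 and 105 FPKM in cK15, against 248, 239 and 205 FPKM in control (log2 fold change -1.10, SE 0.11, limma adjusted p = 3.56e-08). Dbt, the E2 core, was at 13.97, 14.9 and 11.4 FPKM in cK15, against 38.7, 32.99 and 30.3 FPKM in control (log2 fold change -1.28, SE 0.13, limma adjusted p = 7.83e-08). In each of these genes the highest cK15 library was below the lowest control library, as in every lower gene past the threshold. Ppm1k, the phosphatase that activates the complex, also fell, at 14.2, 9.69 and 9.68 FPKM in cK15, against 33.7, 20.8 and 18.9 FPKM in control (log2 fold change -1.04, SE 0.23, limma adjusted p = 0.0101).

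Dld, the E3 subunit that the complex shares with pyruvate and 2-oxoglutarate dehydrogenase, did not pass the threshold. It was at 439, 432 and 363 FPKM in cK15, against 398, 376 and 361 FPKM in control (log2 fold change 0.12, SE 0.093, limma adjusted p = 0.982). Bckdk, the kinase that inactivates the complex, was at 84.02, 67.1 and 66.96 FPKM in cK15, against 78.9, 70.2 and 73 FPKM in control and the groups overlapped (log2 fold change -0.03, SE 0.11, limma adjusted p = 1.00). In the list of transaminase and complex genes, 5 of 7 tested genes fell, against 1.1% of all tested genes.

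On the leucine branch 3 of 5 tested genes fell, against 1.1% of all tested genes. Ivd, which oxidises isovaleryl-CoA, was at 127, 116 and 127 FPKM in cK15, against 338, 324 and 307 FPKM in control (log2 fold change -1.38, SE 0.079, limma adjusted p = 1.63e-13), and the 3 libraries of each group lay close together. The subunits of methylcrotonyl-CoA carboxylase, Mccc2 and Mccc1, differed by -0.73 (SE 0.10, limma adjusted p = 2.56e-05) and -0.66 (SE 0.11, limma adjusted p = 0.00034). Mccc1 missed the threshold without the 12 libraries of low Myl2 (adjusted p = 0.0924) and in the fit of the 6 libraries (adjusted p = 0.1705). Auh, the methylglutaconyl-CoA hydratase that follows, did not pass the threshold, at 159.7, 167 and 154 FPKM in cK15, against 140.1, 161 and 159.9 FPKM in control. RNA of the oxidation and carboxylation steps therefore lay below control in every cK15 library, while the groups overlapped in Auh.

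On the valine, isoleucine and propionate branches 9 of 16 tested genes fell, against the same 1.1%. Abat, the 4-aminobutyrate transaminase that also acts in valine breakdown, was at 0.669, 0.831 and 0.783 FPKM in cK15, against 5.79, 4.44 and 3.84 FPKM in control (log2 fold change -1.68, SE 0.18, limma adjusted p = 2.34e-07). Aldh6a1, the methylmalonate semialdehyde dehydrogenase of valine, was at 44.5, 33.3 and 25.1 FPKM in cK15, against 119, 89.6 and 80.5 FPKM in control (log2 fold change -1.48, SE 0.21, limma adjusted p = 3.02e-05). Mut, the mutase that passes propionate carbon to succinyl-CoA, was at 49.5, 34.2 and 35.3 FPKM in cK15, against 106, 89.99 and 69.3 FPKM in control (log2 fold change -1.14, SE 0.18, limma adjusted p = 0.000127). Echs1, an enoyl-CoA hydratase used by valine and by fatty acids, was at 363, 352 and 319.8 FPKM in cK15, against 522, 591 and 604 FPKM in control (log2 fold change -0.73, SE 0.11, limma adjusted p = 7.34e-05). No cK15 library reached the control range in any of these 4 genes, as in every lower gene past the threshold. The other 5 were Acadsb, Hsd17b10, Pcca, Acat1 and Pccb, with differences from -0.64 to -0.34. Hibch and Hibadh, the valine steps between Echs1 and Aldh6a1, did not pass the threshold, with differences of 0.05 (limma adjusted p = 1.00) and -0.22 (limma adjusted p = 0.3001).

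**Figure D2:**
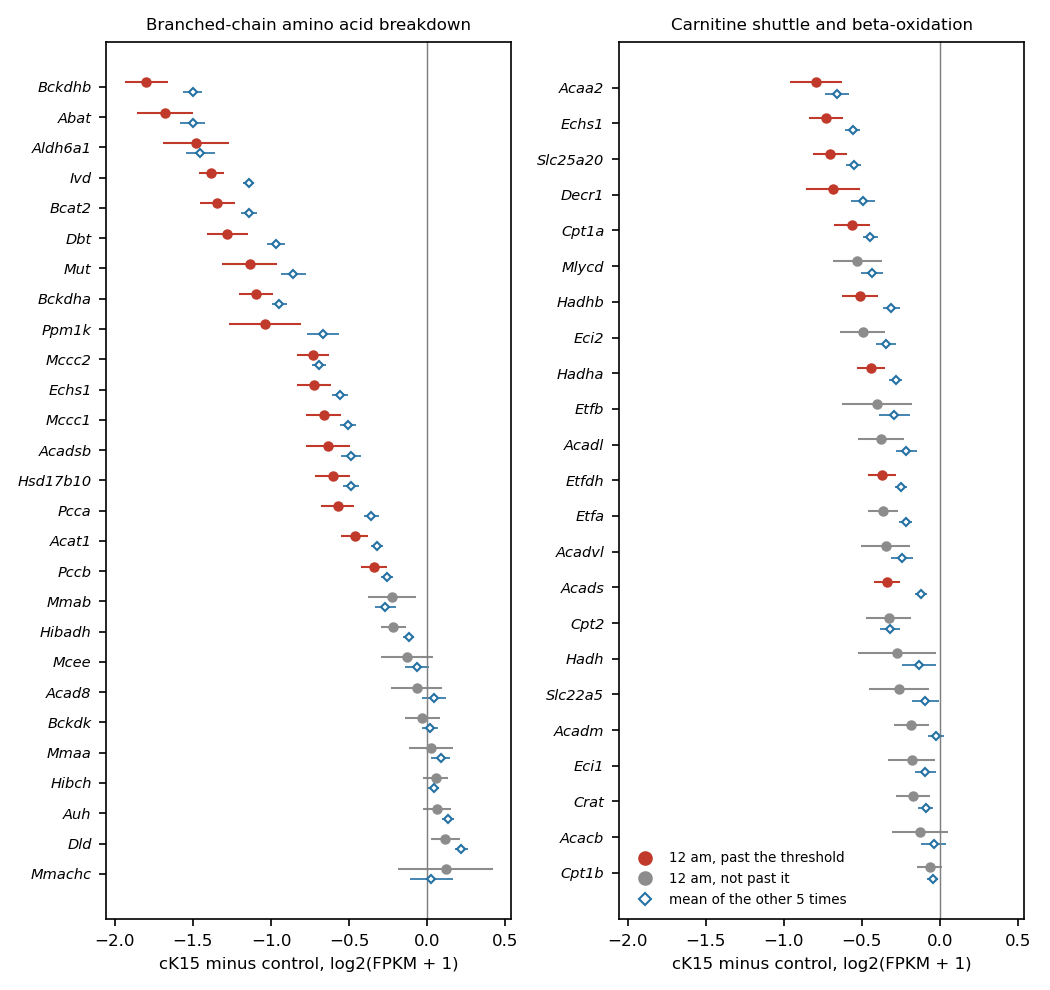
Difference between cK15 and control hearts on the log2(FPKM + 1) scale for 27 of the 28 tested genes of branched-chain amino acid breakdown (left) and the 23 of the carnitine shuttle and beta-oxidation (right), with circles for 12 am (red past the threshold, grey not) and open diamonds for the mean of the other 5 times; bars show the standard error. Bckdhb at -1.80 is lowest on the left and Acaa2 at -0.79 lowest on the right.

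In the list of proline, glutamate and alanine enzymes 4 of 14 tested genes fell and none rose, against 1.1% lower among all tested genes. Prodh, which opens proline oxidation, was at 7.61, 8.59 and 6.98 FPKM in cK15, against 25.9, 28.1 and 25.4 FPKM in control (log2 fold change -1.66, SE 0.18, limma adjusted p = 3.02e-07), and Aldh4a1, the next enzyme, at 20.7, 18.02 and 18.1 FPKM in cK15, against 42.4, 37.2 and 39.9 FPKM in control (log2 fold change -1.04, SE 0.11, limma adjusted p = 1.48e-07). Oat, the ornithine transaminase that yields the same semialdehyde, differed by -0.81 (SE 0.069, limma adjusted p = 1.44e-09). Gpt, the cytosolic alanine transaminase, was at 21.9, 14.95 and 21.9 FPKM in cK15, against 45.2, 42.1 and 38.5 FPKM in control (log2 fold change -1.08, SE 0.16, limma adjusted p = 7.16e-05), and Gpt2, the mitochondrial form, at 23.4, 17.9 and 20.5 FPKM in cK15, against 21.05, 16.9 and 17.3 FPKM in control (log2 fold change 0.15, SE 0.19, limma adjusted p = 1.00). The cytosolic form was thus lower in every cK15 library and the mitochondrial form overlapped between groups. Glud1, glutamate dehydrogenase, lay below control in every cK15 library but did not pass the threshold (log2 fold change -0.32, SE 0.088, limma adjusted p = 0.0795).

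Of 6 tested tyrosine and kynurenine enzymes 2 fell, against 1.1% lower among all tested genes. Fah, the last enzyme of tyrosine breakdown, was at 5.48, 6.401 and 4.35 FPKM in cK15, against 26.99, 27.2 and 25.5 FPKM in control (log2 fold change -2.12, SE 0.26, limma adjusted p = 1.81e-06). Ccbl2 (now Kyat3), a kynurenine aminotransferase that also acts on sulfur amino acids, was at 8.65, 9.36 and 9.69 FPKM in cK15, against 40.97, 36.7 and 36.1 FPKM in control (log2 fold change -1.93, SE 0.11, limma adjusted p = 1.63e-13). Of 10 tested sulfur amino acid and sulfide enzymes 1 fell, against the same 1.1%. Cth, which makes cysteine from cystathionine, was listed at 0 in all 3 cK15 libraries, against 4.13, 3.03 and 1.702 FPKM in the control libraries (limma adjusted p = 1.56e-07). In steps of 1 fragment Cth had 0 and 0 in cK15 replicates 3 and 4, against 18 and 9 in control replicates 3 and 4.

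Glutathione transferases join glutathione to electrophiles such as lipid peroxidation products. Of 19 tested transferases 4 fell and none rose, against 1.1% lower among all tested genes. Besides Gstm2 and Gstk1 these were Gstm7, at 11.6, 11.7 and 8.72 FPKM in cK15, against 57.2, 46.9 and 46.7 FPKM in control (log2 fold change -2.14, SE 0.15, limma adjusted p = 1.05e-11), and Gstm1, at 169.6, 168 and 181 FPKM in cK15, against 243, 232 and 288 FPKM in control (log2 fold change -0.55, SE 0.092, limma adjusted p = 0.000378). Gstm1 was the more abundant of this pair of mu-class genes and had the smaller difference. Mu-class genes are close copies of each other in a cluster on chromosome 3, so reads may have been split between them, and their separate values are uncertain. Among 22 tested genes of superoxide and peroxide defence, Nqo1, a quinone reductase, fell, at 34.2, 37.9 and 38.2 FPKM in cK15, against 51.2, 58.4 and 54.2 FPKM in control (log2 fold change -0.56, SE 0.12, limma adjusted p = 0.00672), and none rose. Nqo1 missed the threshold without cK15 replicate 1 (adjusted p = 0.0584) and without control replicate 3 (adjusted p = 0.0651). It also missed it in the fit of the 6 libraries (limma adjusted p = 0.1004).

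Single genes of lipid uptake fell, where the share lower among all tested genes was 1.1%. Lpl, lipoprotein lipase, which frees fatty acids from circulating triglyceride, was at 358, 353 and 364 FPKM in cK15, against 823, 668 and 610.3 FPKM in control (log2 fold change -0.95, SE 0.11, limma adjusted p = 3.23e-07). Angptl4, a secreted inhibitor of that lipase and a PPAR and glucocorticoid target, was at 0.983, 0.5604 and 0.309 FPKM in cK15, against 5.26, 10.3 and 6.41 FPKM in control (log2 fold change -2.34, SE 0.45, limma adjusted p = 0.00232). RNA of the lipase and of its inhibitor thus both lay below control in every cK15 library. Of 16 tested genes of fatty acid uptake and activation 2 fell, Lpl and Acss1, the mitochondrial acetyl-CoA synthetase (log2 fold change -0.40, SE 0.067, limma adjusted p = 0.00034). Cd36, the main fatty acid transporter, was at 1508, 1111 and 1014 FPKM in cK15, against 1836, 1364 and 1264 FPKM in control and the groups overlapped (log2 fold change -0.30, SE 0.22, limma adjusted p = 0.951). Of 22 triglyceride genes 1 fell, Gpam, the first acyltransferase of glycerolipid synthesis (log2 fold change -0.59, SE 0.11, limma adjusted p = 0.00114).

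In the carnitine shuttle and mitochondrial beta-oxidation 9 of 23 tested genes fell and none rose, against 1.1% lower among all tested genes, with a median of -0.37. Slc25a20, the acylcarnitine carrier, was at 155, 145 and 153 FPKM in cK15, against 237, 257 and 246 FPKM in control (log2 fold change -0.70, SE 0.11, limma adjusted p = 0.000145). Cpt1a, the carnitine palmitoyltransferase isoform that is the minor one in adult heart, was at 13.2, 12.6 and 12.5 FPKM in cK15, against 20.95, 18.2 and 18.9 FPKM in control (log2 fold change -0.56, SE 0.11, limma adjusted p = 0.00403). Cpt1a missed the threshold without the 12 libraries of low Myl2 (adjusted p = 0.0706) and in the fit of the 6 libraries (adjusted p = 0.141). Cpt1b, the muscle isoform, was at 605, 591 and 589 FPKM in cK15, against 621, 609 and 638 FPKM in control (log2 fold change -0.07, SE 0.081, limma adjusted p = 1.00). The muscle isoform also lay below control in every cK15 library, by a small amount that did not pass the threshold. Hadha, a subunit of the trifunctional protein, was at 783, 759 and 763 FPKM in cK15, against 1043, 1122 and 971 FPKM in control (log2 fold change -0.44, SE 0.091, limma adjusted p = 0.00483), and the other 6 were Acaa2, Echs1, Decr1, Hadhb, Etfdh and Acads. Differences were modest, between -0.79 for Acaa2 and -0.34 for Acads, and the count was 5 without cK15 replicate 3, 5 without control replicate 2, 5 without control replicate 3 and 3 in the fit of the 6 libraries. Hadha was past the threshold except without control replicate 3 (adjusted p = 0.0617), with median-ratio rescaling (adjusted p = 0.0544) and in the fit of 6 libraries (adjusted p = 0.205).

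Acyl-CoA thioesterases, which release free fatty acid from CoA, and uncoupling proteins had 4 lower genes among 10 tested, against 1.1% of all tested genes. Ucp3, the muscle uncoupling protein, was at 0.953, 1.85 and 1.53 FPKM in cK15, against 7.603, 8.34 and 9.21 FPKM in control (log2 fold change -1.95, SE 0.31, limma adjusted p = 0.000147). Acot11 was at 4.26, 2.01 and 3.72 FPKM in cK15, against 7.701, 6.42 and 6.45 FPKM in control (log2 fold change -0.90, SE 0.18, limma adjusted p = 0.00271), and Acot7 differed by -0.53 (SE 0.11, limma adjusted p = 0.00706). Acot1, a cytosolic thioesterase, was at 0, 0.233 and 0.965 FPKM in cK15, against 1.803, 2.37 and 1.78 FPKM in control (log2 fold change -1.15, SE 0.27, limma adjusted p = 0.0198), which in steps of 1 fragment was 1 and 5 in cK15 replicates 3 and 4, against 12 and 8 in control replicates 3 and 4. Acot1 and Acot2 are close copies, so their separate values are uncertain. The count for the list was 2 without cK15 replicate 3 and 2 without control replicate 4. Acot11 missed the threshold without cK15 replicate 3 (adjusted p = 0.0646), Acot7 without control replicate 4 (adjusted p = 0.0909), and Acot1 on leaving out any one library except cK15 replicate 4 (adjusted p from 0.0504 to 0.187). In the fit of the 6 libraries Acot11, Acot7 and Acot1 missed it (limma adjusted p = 0.205, 0.162 and 0.137). Without the 12 libraries of low Myl2, Acot7 (0.0511) and Acot1 (0.160) missed it. Acot1 also missed it with a pseudocount of 0.1 (0.133) and with a replicate block (0.0523).

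Peroxisomes shorten very long fatty acids. Of 33 tested peroxisomal genes 3 fell and none rose, against 1.1% lower among all tested genes. Pxmp2, a channel of the peroxisomal membrane, was at 38.8, 27.7 and 33.3 FPKM in cK15, against 104, 103 and 83.6 FPKM in control (log2 fold change -1.52, SE 0.16, limma adjusted p = 1.02e-07). Ech1, a dienoyl-CoA isomerase, was at 1664, 1883 and 2070.2 FPKM in cK15, against 2864, 3496 and 3162 FPKM in control (log2 fold change -0.76, SE 0.16, limma adjusted p = 0.00587). In both of these genes the groups lay apart, but Ech1 missed the threshold without cK15 replicate 1 (adjusted p = 0.0594) and without control replicate 3 (adjusted p = 0.0617). Ech1 also missed it with median-ratio rescaling (limma adjusted p = 0.0676). Of 14 tested PPAR, PGC-1 and ERR regulators, which activate many fatty acid oxidation genes, none passed the threshold, against 1.22% of all tested genes. Ppara was at 4.55, 3.48 and 5.18 FPKM in cK15, against 6.39, 4.93 and 4.83 FPKM in control (log2 fold change -0.24, SE 0.20, limma adjusted p = 0.982) and Ppargc1a at 22.1, 20.4 and 20.3 FPKM in cK15, against 25.2, 19.4 and 22.05 FPKM in control (log2 fold change -0.07, SE 0.11, limma adjusted p = 1.00).

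Pdk4, the kinase that shuts pyruvate out of the citric acid cycle, was at 27.6, 16.3 and 20.6 FPKM in cK15, against 70.0, 59.4 and 86.5 FPKM in control (log2 fold change -1.71, SE 0.29, limma adjusted p = 0.000474), the only gene of 12 tested around pyruvate dehydrogenase to pass the threshold. Pdk2, the most abundant kinase of that list, was at 158, 123 and 131 FPKM in cK15, against 165, 109 and 116 FPKM in control with overlapping groups (log2 fold change 0.10, SE 0.14, limma adjusted p = 1.00). Pfkfb1, an isoform of the enzyme that sets fructose 2,6-bisphosphate, was at 0.559, 1.46 and 1.55 FPKM in cK15, against 10.01, 10.1 and 3.98 FPKM in control (log2 fold change -1.99, SE 0.28, limma adjusted p = 3.57e-05), and it was the 1 gene of 23 tested in glucose uptake and glycolysis to fall. Among all tested genes 1.1% were lower. The control values of Pfkfb1 were uneven, with control replicate 4 well below the other control libraries. Fbp2, the muscle fructose bisphosphatase, was at 5.65, 5.75 and 9.52 FPKM in cK15, against 27.1, 33.4 and 31.8 FPKM in control (log2 fold change -2.02, SE 0.27, limma adjusted p = 8.36e-06). Slc2a4, the insulin-responsive glucose transporter, was at 190.1, 115 and 131 FPKM in cK15, against 225, 150.1 and 148 FPKM in control and did not pass the threshold (log2 fold change -0.27, SE 0.27, limma adjusted p = 1.00).

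Single genes fell in several lists of mitochondrial function, where the share among all tested genes was 1.1%. In the citric acid cycle 1 of 19 tested genes fell, Suclg2, the GTP-forming subunit of succinyl-CoA ligase (log2 fold change -0.41, SE 0.077, limma adjusted p = 0.00192). Among 25 respiratory chain subunits 1 fell. This was Cox6a2, the heart and muscle isoform of a cytochrome c oxidase subunit, at 1660.1, 1358 and 1188 FPKM in cK15, against 3164, 2429 and 2489 FPKM in control (log2 fold change -0.95, SE 0.19, limma adjusted p = 0.00306). Its liver-type counterpart Cox6a1 was at 183, 193 and 160.5 FPKM in cK15, against 155, 155 and 149.6 FPKM in control (log2 fold change 0.22, SE 0.14, limma adjusted p = 0.897). Thus every cK15 library was below control for the muscle isoform and above control for the other one, although Cox6a1 did not pass the threshold. Among 31 mitochondrial carriers of the SLC25 family 1 fell, Slc25a34, at 13.3, 9.29 and 10.9 FPKM in cK15, against 29.4, 27.6 and 21.7 FPKM in control (log2 fold change -1.17, SE 0.17, limma adjusted p = 6.73e-05). Among cytosolic and mitochondrial chaperones 1 of 17 fell, Hspe1, the small mitochondrial chaperonin, at 71.1, 59.2 and 54.7 FPKM in cK15, against 107, 110.5 and 108 FPKM in control (log2 fold change -0.82, SE 0.12, limma adjusted p = 6.79e-05). Its partner Hspd1, whose gene overlaps it, was at 129, 132 and 138 FPKM in cK15, against 147, 168 and 167 FPKM in control (log2 fold change -0.27, SE 0.096, limma adjusted p = 0.295).

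Of 21 tested ion channel genes 1 fell, against 1.1% lower among all tested genes. This was Kcnip2, the subunit that partners Kv4 channels of the transient outward current. It was at 53.4, 49.1 and 53.6 FPKM in cK15, against 85.2, 78.2 and 104 FPKM in control (log2 fold change -0.75, SE 0.099, limma adjusted p = 8.36e-06), with no overlap between groups. The pore subunits of that current did not pass the threshold: Kcnd2 was at 3.32, 2.89 and 1.11 FPKM in cK15, against 2.55, 1.39 and 1.97 FPKM in control, and Kcnd3 at 2.36, 2.72 and 1.96 FPKM in cK15, against 2.12, 1.24 and 2.08 FPKM in control. In Kcnd2 and Kcnd3 the groups overlapped. Scn4b, a beta subunit of the sodium channel, was lower in every cK15 library at 1.28, 0.796 and 1.25 FPKM in cK15, against 3.52, 3.18 and 2.35 FPKM in control, but its adjusted p was 0.1198 (log2 fold change -0.93, SE 0.27). In endoplasmic reticulum folding 1 of 20 genes fell, against the same 1.1%. This was Sdf2l1, at 1.66, 1.03 and 1.14 FPKM in cK15, against 2.78, 4.09 and 3.95 FPKM in control (log2 fold change -1.01, SE 0.26, limma adjusted p = 0.0483). It kept the threshold without control replicate 2 and missed it on leaving out any other library (adjusted p from 0.0566 to 0.229). Sdf2l1 also missed it with a pseudocount of 0.1, no filter, median-ratio or quantile scaling (limma adjusted p from 0.0529 to 0.0870). The same held without the 12 libraries of low Myl2 (0.0590) and in the fit of the 6 libraries (0.0687).

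**Figure D3:**
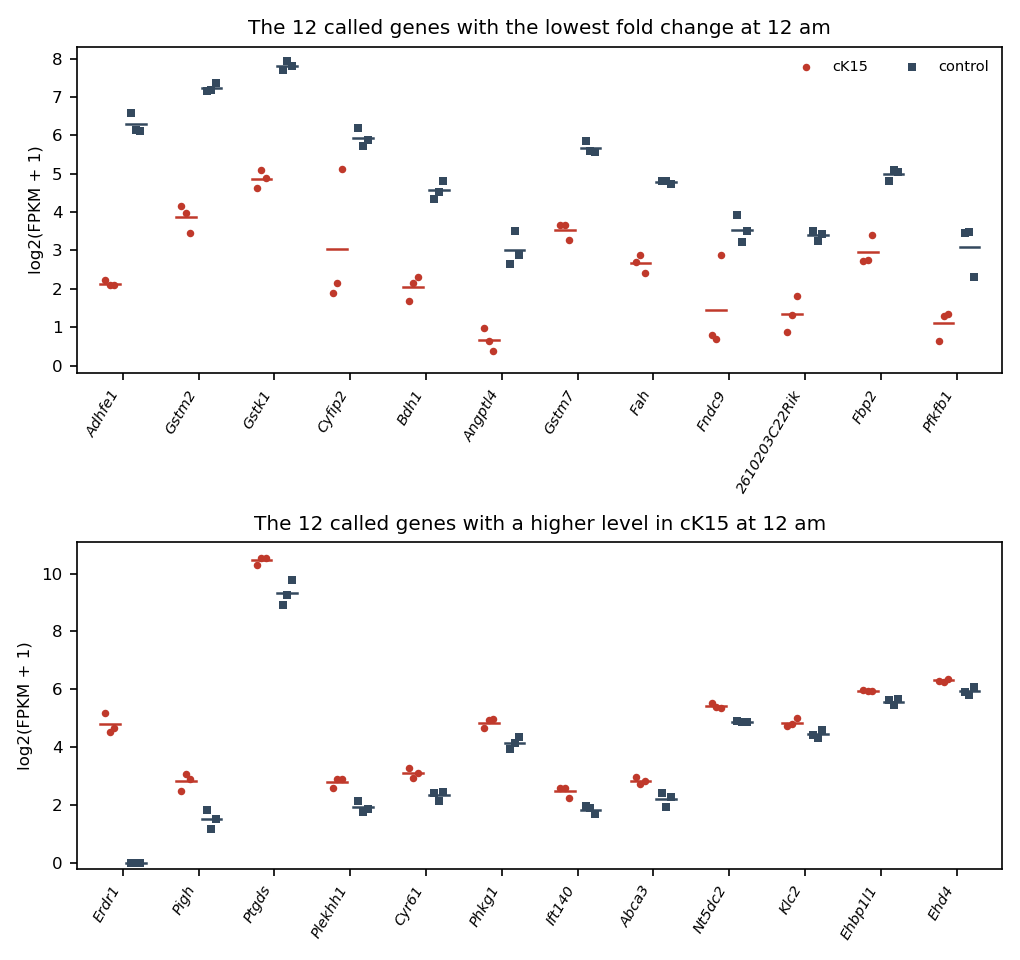
Expression in each library of 12 am on the log2(FPKM + 1) scale (vertical axis) for the 12 lowest (top) and the 12 higher genes past the threshold (bottom), cK15 as red circles left of control as dark squares, in replicate order, with a line at each group mean. In the top panel cK15 replicate 4 stands apart, closer to control, in Cyfip2 (33.5 FPKM) and Fndc9 (6.41 FPKM), and in the bottom panel the higher genes from Ift140 rightwards differ by less than 0.65.

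The 12 genes that rose shared no list. Ptgds, a prostaglandin D2 synthase that is also a secreted carrier protein, was the most abundant of them, at 1269, 1503 and 1482 FPKM in cK15, against 482, 611 and 884 FPKM in control (log2 fold change 1.15, SE 0.22, limma adjusted p = 0.00264). Pigh, which acts in GPI anchor synthesis, was at 4.57, 7.42 and 6.395 FPKM in cK15, against 2.56, 1.26 and 1.84 FPKM in control (log2 fold change 1.31, SE 0.27, limma adjusted p = 0.00471), and its overlapping neighbour Plekhh1 at 4.97, 6.52 and 6.44 FPKM in cK15, against 3.35, 2.37 and 2.66 FPKM in control (log2 fold change 0.88, SE 0.16, limma adjusted p = 0.00158). Pigh missed the threshold without cK15 replicate 3 (adjusted p = 0.0542) and without control replicate 3 (adjusted p = 0.0617), while Ptgds and Plekhh1 kept it on leaving out any one library. Erdr1 was at 35.3, 22.3 and 24.5 FPKM in cK15 libraries and listed at 0 in all 3 control libraries (limma adjusted p = 0.00361), and as a gene of repeated sequence its level is uncertain.

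The other 8 higher genes differed by 0.78 or less, and 0.113% of all tested genes were higher. Cyr61 (now Ccn1), a secreted matrix protein and the 1 gene of 7 tested immediate early genes to rise, was at 8.82, 6.62 and 7.65 FPKM in cK15, against 4.3, 3.404 and 4.48 FPKM in control (log2 fold change 0.78, SE 0.20, limma adjusted p = 0.0459). Phkg1, the muscle catalytic subunit of phosphorylase kinase and the 1 gene of 19 tested glycogen genes to rise, was at 24.1, 29.6 and 30.4 FPKM in cK15, against 14.2, 16.6 and 19.3 FPKM in control (log2 fold change 0.72, SE 0.17, limma adjusted p = 0.01798). Both were above control in every cK15 library. Nt5dc2, a nucleotidase-domain gene, was at 45.4, 40.4 and 40.4 FPKM in cK15, against 28.7, 27.9 and 28.1 FPKM in control (log2 fold change 0.56, SE 0.12, limma adjusted p = 0.0105). The remaining 5 were Ift140, a component of intraflagellar transport (0.64), Abca3, a lipid transporter (0.63), Klc2, a kinesin light chain (0.39), Ehbp1l1 (0.38) and the endosomal Ehd4 (0.38), with limma adjusted p from 0.0198 to 0.0461. None of these 8 kept the threshold on leaving out each library in turn: Cyr61 missed it on leaving out any one library (adjusted p from 0.0580 to 0.262), Phkg1 on leaving out any except cK15 replicate 1 and control replicate 4 (0.0689 to 0.152), and Nt5dc2 without cK15 replicate 1 (0.0866) and without control replicate 3 (0.0566). Ift140 kept it only without cK15 replicate 4 (otherwise 0.0674 to 0.249), Abca3 only without control replicate 2 (otherwise 0.0771 to 0.358) and Ehd4 only without control replicate 4 (otherwise 0.102 to 0.347). Ehbp1l1 kept it only without control replicate 2 or 4 (otherwise 0.0598 to 0.194), and Klc2 only without cK15 replicate 1 or control replicate 4 (otherwise 0.0646 to 0.282).

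None of 19 tested natriuretic peptide and fetal heart genes passed the threshold, which 1.22% of all tested genes passed. The median of the list was 0.31, and 6 of the 19 lay above control in every cK15 library, against 3.5% of all tested genes. Over the other 5 times the median of the list was 0.097. Nppa, the atrial natriuretic peptide that reappears in the stressed ventricle, was at 126, 143 and 119.5 FPKM in cK15, against 52.2, 32.8 and 74.9 FPKM in control (log2 fold change 1.34, SE 0.47, limma adjusted p = 0.274). Acta1, skeletal alpha actin of the fetal heart, was at 153, 126 and 164 FPKM in cK15, against 82.7, 104 and 96.2 FPKM in control (log2 fold change 0.64, SE 0.40, limma adjusted p = 0.859). Ankrd1, a stretch-responsive repeat protein, was at 824, 1459 and 959 FPKM in cK15, against 501, 803 and 763 FPKM in control (log2 fold change 0.64, SE 0.28, limma adjusted p = 0.541). In these 3 genes the groups did not overlap. Their standard errors come from the spread within all 12 groups of the series: for Nppa the SD was 12.2 FPKM in cK15 and 21.1 FPKM in control at midnight (n = 3 each), and between 4.40 and 151 FPKM in the groups of the other times. At midnight Nppa averaged 130 FPKM in cK15 and 53.3 FPKM in control. At the other times its group means were 115 to 218 FPKM in cK15 and 77.3 to 177 FPKM in control. Nppb, the related B-type peptide, was at 379.7, 447 and 534 FPKM in cK15, against 226, 197 and 401 FPKM in control and overlapped in control replicate 4. Myh7, the fetal myosin heavy chain, was at 18.6, 33.6 and 28.4 FPKM in cK15, against 25.2, 30.3 and 28.7 FPKM in control with no separation. Of the atrial markers, whose summed level was 137 to 151 FPKM in cK15 libraries and 46.8 to 93.8 FPKM in control libraries, Nppa made up most, Sln was at 0 in all 6 libraries, and Myl7 was at 1.06, 0.762 and 4.41 FPKM in cK15, against 4.55, 5.18 and 2.94 FPKM in control. The part of atrial tissue in the Nppa values was not tested.

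Of 18 clock genes tested at midnight none passed the threshold, which 1.22% of all tested genes passed. At that share so short a list may hold no such gene. Arntl, the clock activator also known as Bmal1, was nonetheless above control in every cK15 library, at 15.02, 13.7 and 12.7 FPKM in cK15, against 9.83, 9.95 and 6.98 FPKM in control (log2 fold change 0.59, SE 0.25, limma adjusted p = 0.497). Cry1, a repressor, was at 12.9, 11.5 and 12.6 FPKM in cK15, against 9.76, 7.93 and 9.21 FPKM in control (log2 fold change 0.42, SE 0.18, limma adjusted p = 0.511). Per3, a period gene, was below control in every cK15 library, at 4.65, 4.15 and 4.28 FPKM in cK15, against 8.14, 6.29 and 6.45 FPKM in control (log2 fold change -0.56, SE 0.20, limma adjusted p = 0.2702). Of the 18, 3 lay wholly above control, as did 3.5% of all tested genes, and 2 wholly below (Per3 and Rora), as did 7.76%. Clock, the partner of Arntl, was at 20.2, 14.9 and 15.8 FPKM in cK15, against 19.6, 13.8 and 13.9 FPKM in control, and Dbp, a clock output factor, at 4.19, 4.94 and 4.97 FPKM in cK15, against 3.36, 5.83 and 8.18 FPKM in control, and in both the groups overlapped.

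**Figure D4:**
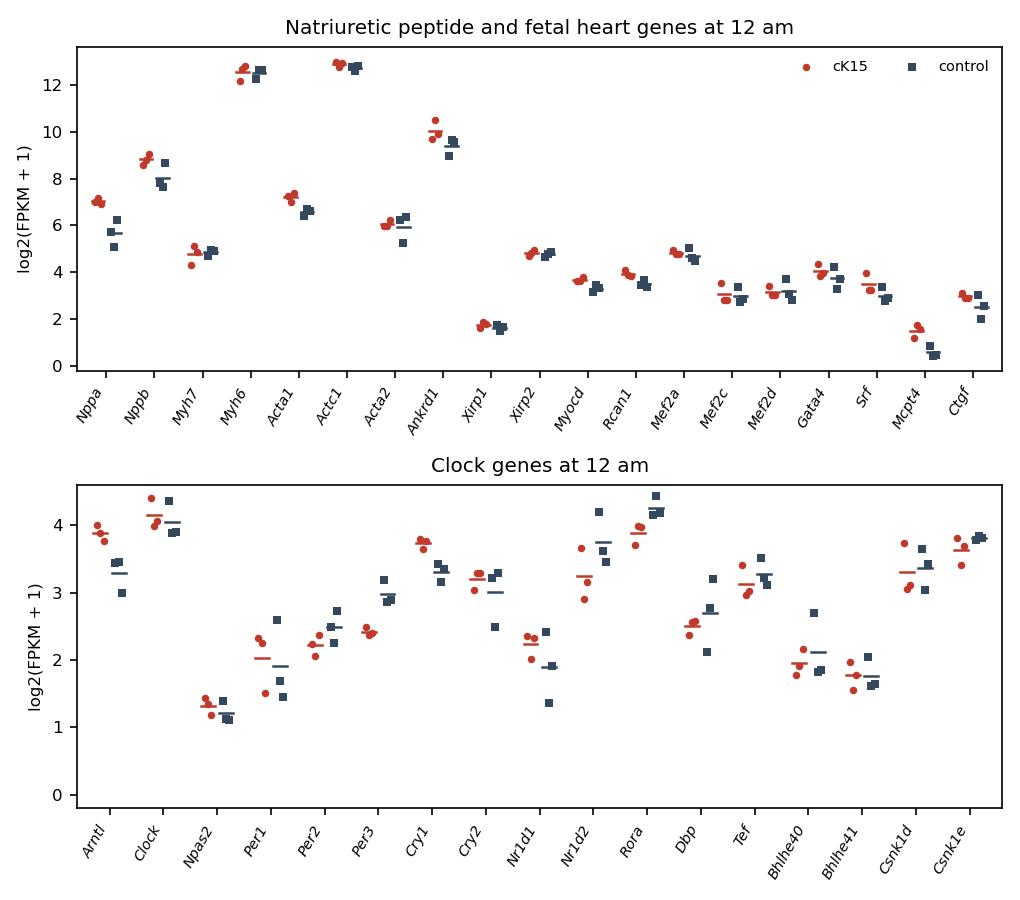
Expression in each library of 12 am on the log2(FPKM + 1) scale (vertical axis) for 19 natriuretic peptide and fetal heart genes (top) and 17 of the 18 clock genes (bottom), cK15 as red circles left of control as dark squares, with a line at each group mean; no gene shown passed the threshold. Nppa (120 to 143 FPKM in cK15, 32.8 to 74.9 FPKM in control) and Arntl (12.7 to 15.02 FPKM in cK15, 6.98 to 9.95 FPKM in control) show groups that do not overlap.

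Among 18 glucocorticoid-responsive genes 1 fell, Angptl4, and none rose, against 1.1% lower among all tested genes. Fkbp5, a chaperone induced by the receptor, was at 7.33, 4.28 and 7.01 FPKM in cK15, against 5.29, 6.61 and 6.84 FPKM in control, and Tsc22d3, the leucine zipper GILZ, at 23.3, 18.4 and 9.46 FPKM in cK15, against 14.6, 11.7 and 12.7 FPKM in control. The groups overlapped in both. Of 8 other Kruppel-like factors tested none passed the threshold, and Klf9, itself a glucocorticoid target, was at 3.36, 1.99 and 1.74 FPKM in cK15, against 4.62, 3.65 and 2.09 FPKM in control (log2 fold change -0.39, SE 0.21, limma adjusted p = 0.781). No gene passed the threshold among 20 adult sarcomere, 14 calcium handling, 30 extracellular matrix, 16 insulin and FOXO signalling, 17 adrenergic, 19 autophagy, 16 sterol, 19 NAD and sirtuin and 12 creatine genes tested. Among all tested genes 1.22% passed, and missing the threshold does not show that the genes of these lists were alike in both groups.

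None of the tested genes of 15 marker lists for cell types and RNA fractions passed the threshold, which 1.22% of all tested genes passed. At that share a short list may hold none, and missing the threshold does not show that cell composition was alike. The lymphocyte, adipocyte and mitochondrial genome RNA lists had 0 tested genes and could give no call. Cardiomyocyte markers summed to 67049 to 115337 FPKM in cK15 libraries and 63319 to 110394 FPKM in control libraries, the lowest sum of each genotype being in its library of low Myl2. Myl2 is itself in this list, at 35773 FPKM in cK15 replicate 1 and 32970 FPKM in control replicate 2. That match is therefore partly built in. Fibroblast markers summed to 1400 to 1579 FPKM in cK15 libraries and 1516 to 1765 FPKM in control libraries, and macrophage markers to 188 to 191 FPKM in cK15 libraries and 179 to 262 FPKM in control libraries. Endothelial markers summed to 279.8 to 299 FPKM in cK15 libraries and 291 to 334 FPKM in control libraries, and smooth muscle and pericyte markers to 255 to 314 FPKM in cK15 libraries and 242 to 350.5 FPKM in control libraries. These ranges overlapped, and Cldn5 of the endothelial list was at 0 in all 6 libraries. The mesothelial sum, 13.9 to 16.1 FPKM in cK15 libraries and 17.7 to 20.5 FPKM in control libraries, did not. Its part in the differences above was not tested.

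The midnight difference was then set against the difference between genotypes at the other times, since a gene past the threshold at midnight need not differ from its difference elsewhere. In a test of the midnight difference minus the mean difference of the other 5 times no gene passed the threshold (0%), and 260 did at an unadjusted p under 0.05 (2.45%), all by limma. Against the difference at noon (12 pm) no gene passed either (0%), and 235 did at an unadjusted p under 0.05 (2.22%). Of the 117 lower genes, 103 had a difference further from 0 at midnight than over the other 5 times, which describes genes chosen at midnight and is not a test. Adhfe1 differed by -4.15 at midnight and by -4.02 over the other times, Gstm2 by -3.37 and -2.98, Bckdhb by -1.80 and -1.50, and Pdk4 by -1.71 and -1.49. Over the 28 genes of branched-chain amino acid breakdown the median difference was -0.59 at midnight and -0.42 over the other times. These comparisons share no library, and both sets of differences come from one fit.

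Arntl had the smallest p of all genes in the test against noon (midnight minus noon 1.70, unadjusted p = 3.31e-05, limma adjusted p = 0.351). At midnight it averaged 13.8 ± 1.18 FPKM in cK15 libraries and 8.92 ± 1.68 FPKM in control libraries, and at noon 4.67 ± 1.80 FPKM in cK15 libraries and 10.9 ± 1.81 FPKM in control libraries (SD, n = 3 each). Arntl was thus higher in cK15 at midnight and lower in cK15 at noon on average, a change of sign that did not pass the threshold after adjustment. With a term for the 12 libraries of low Myl2 in the fit, a set picked from the expression values, Arntl passed in this test (midnight minus noon 1.70, limma adjusted p = 0.0357). Ptgds differed by 1.15 at midnight and 0.51 over the other times (unadjusted p of the difference = 0.0151), Ucp3 by -1.95 and -1.26 (unadjusted p = 0.0481) and Angptl4 by -2.34 and -1.63 (unadjusted p = 0.1605). None of these differences passed after adjustment.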

How the data were processed

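Heart apex RNA of 36 libraries was measured by stranded total RNA sequencing after depletion of ribosomal RNA, per the labels' protocols. The authors deposited FPKM per gene symbol and library in 1 table for each genotype. The submitters' processing notes name GSNAP, HTSeq and build mm10; the versions, roles and annotation were not given in the sources used here. Since FPKM is scaled to the total of a library, the share taken by its most abundant genes moves the values of the rest.

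Values were analysed as log2(FPKM + 1) with limma 3.58.1 in R 4.3.3, in 1 fit of 12 group means over the 36 libraries with mean-dependent and robust variance moderation. Tested were genes with a mean of at least 1 FPKM over the 36 libraries, plus Klf15, whose mean was 0.758. P-values were adjusted by Benjamini-Hochberg over 10600 genes with a threshold of 0.05. Contrasts were cK15 minus control at 12 am, and that difference against the mean of the other 5 times and against noon. FPKM are not counts, so no count test was made. The tables name genes by symbol, 27 symbols had become dates and 2 occurred more than once, and these are not named. Some further genes entered every fit and count but are not reported here.

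Named genes were the 12 lowest and 12 highest fold changes past the threshold, up to 4 such members of each of 38 function lists by smallest adjusted p, and Klf15. Where a list had no such member, or to set beside one that passed, values of other members are given. The genes, the 38 function lists and 15 marker lists were chosen with earlier results of these data known. Coordinates and promoter windows are from RefSeq GRCm38.p6, and all 64 named genes were matched. Depth in absolute counts was not derived, so counting intervals and detection floors were left out. Relative depth came from genes below 0.5 FPKM in both libraries compared. Steps of single genes were sought without that limit, with a tolerance of 0.1 step.

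Alternatives were a pseudocount of 0.1, no filter, a filter of 5 FPKM, median-ratio and quantile scaling, a replicate block, a term for the 12 libraries of low Myl2, the 24 other libraries alone, the 6 libraries of 12 am alone, no robust option, and each library of 12 am left out. The fit was tested on simulated data.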

Additional observations from a re-analysis of the deposited data

How the results depend on the processing

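The count of genes past the threshold at midnight was 129, with 12 higher and 117 lower in cK15. Over 16 alternatives no named gene changed direction, 38 of 64 named genes passed the threshold in each alternative that could be run, and 26 missed it in at least 1. A term for the 12 libraries of low Myl2 gave 256 genes (40 higher, 216 lower), the 24 other libraries alone gave 120 with 7 higher, and the 6 libraries of midnight alone gave 65 (4 higher, 61 lower). Of the 129 genes, 129, 95 and 64 were shared with these fits in that order. The causes were not tested, but the last fit has fewer samples to estimate the spread. Leaving out 1 library of midnight at a time gave 100 to 121 genes, 4 to 10 of them higher and 96 to 114 lower. The replicate numbers 3 and 4 occur in both groups at midnight, and deviations from the group means correlated at 0.287 for number 3 and 0.239 for number 4, with 2 pairs and no label tying them. The highest correlation, 0.482, was between unlike numbers, cK15 replicate 1 and control replicate 2, the midnight libraries of low Myl2. A fit with a replicate block gave 171 genes (16 higher, 155 lower), 125 of them shared. Pseudocount 0.1, no filter, a filter of 5 FPKM, both rescalings and no robust option gave 121 to 129.

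The test against noon gave 1 gene with no filter (Akr1cl) and 3 with the term for low Myl2 (Arntl, Rhobtb1 and Usp2), named after their values were seen, and the test against the other 5 times gave 0 in every fit that could be run. Among the lists, fewer genes of the valine, isoleucine and propionate branches (4) passed in the fit of the 6 libraries, and more of the carnitine and beta-oxidation list (14) with the term for low Myl2. Of the 26 genes that missed the threshold in some alternative, 24 missed it in the fit of the 6 libraries. Klf15, Cth, Acot1 and Sdf2l1 had at most 18 steps in each of the libraries where steps could be counted, which limits the precision of their values.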

Other observations

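The 10 genes of this and the next paragraph lie outside the lists and were chosen after their values were seen, from the 117 that were lower in cK15, so their shared direction was fixed by that choice. Gcat, which cleaves 2-amino-3-ketobutyrate from threonine to glycine, was at 4.97, 2.85 and 3.87 FPKM in cK15, against 14.3, 10.03 and 14.5 FPKM in control (log2 fold change -1.52, SE 0.18, limma adjusted p = 7.5e-07). Gnmt, the glycine methyltransferase, was at 0.232, 0 and 0.3096 FPKM in cK15, against 3.16, 1.59 and 2.15 FPKM in control (log2 fold change -1.46, SE 0.27, limma adjusted p = 0.00114), and cK15 replicate 3 was listed at 0. Gcdh, the glutaryl-CoA dehydrogenase of lysine and tryptophan breakdown, was at 28.1, 31.6 and 27.8 FPKM in cK15, against 59.04, 67 and 61.7 FPKM in control (log2 fold change -1.08, SE 0.11, limma adjusted p = 1.37e-07), and Aldh7a1, which acts earlier on lysine, at 23.9, 26.1 and 23.2 FPKM in cK15, against 34.5, 34.9 and 36.6 FPKM in control (log2 fold change -0.52, SE 0.097, limma adjusted p = 0.00172). Acy1, which frees amino acids from their N-acetylated forms, was at 7.21, 5.897 and 8.91 FPKM in cK15, against 18.4, 20.5 and 19.3 FPKM in control (log2 fold change -1.30, SE 0.16, limma adjusted p = 2.82e-06). In each of these 5 genes the highest cK15 library was below the lowest control library, as in every lower gene past the threshold.

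Aldh2, the mitochondrial aldehyde dehydrogenase, was at 52.6, 41.5 and 53.7 FPKM in cK15, against 129, 98.9 and 104 FPKM in control (log2 fold change -1.15, SE 0.13, limma adjusted p = 6.2e-07). Dcxr, a carbonyl reductase of the pentose and xylulose route, was at 5.61, 6.46 and 5.34 FPKM in cK15, against 22.8, 17.9 and 17.3 FPKM in control (log2 fold change -1.57, SE 0.19, limma adjusted p = 1.54e-06), and Ldhd, the D-lactate dehydrogenase, at 23.8, 19.1 and 23.7 FPKM in cK15, against 42.9, 36.6 and 37.9 FPKM in control (log2 fold change -0.80, SE 0.14, limma adjusted p = 0.000928). Pcx, pyruvate carboxylase, which refills the citric acid cycle, was at 4.14, 2.202 and 4.12 FPKM in cK15, against 10.2, 8.24 and 7.29 FPKM in control (log2 fold change -1.12, SE 0.20, limma adjusted p = 0.0008704). Selenbp1, a methanethiol oxidase, was at 46.6, 64.7 and 56.4 FPKM in cK15, against 158, 181 and 179.6 FPKM in control (log2 fold change -1.62, SE 0.12, limma adjusted p = 5e-11).

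Of the 129 genes past the threshold, 2 had a difference of the other sign over the other 5 times. Tmem194 was at 0.705, 0.478 and 0.593 FPKM in cK15, against 2.23, 2.04 and 1.83 FPKM in control (midnight log2 fold change -0.93, other times 0.02, SE 0.10), and Trappc2, a subunit of a vesicle tethering complex, was at 7.71, 9.19 and 12.96 FPKM in cK15, against 15.6, 18.4 and 22.8 FPKM in control (midnight -0.87, other times 0.05, SE 0.092). Both differences at the other times were smaller than their SE, so a reversal of sign is not shown. The difference between midnight and the other times had an unadjusted p of 0.0006896 for Tmem194 and 0.000311 for Trappc2, and neither passed after adjustment in limma. Rps2, Pttg1 and Ptprn2, given next, lie outside the lists and the naming rules and were chosen after their values were seen. Rps2, a ribosomal protein gene with many processed copies whose reads may be shared, was at 139, 139 and 365 FPKM in cK15, against 599, 729 and 644 FPKM in control (log2 fold change -1.76, SE 0.35, limma adjusted p = 0.00361), with cK15 replicate 4 well above the other cK15 libraries. Pttg1, securin, was at 125, 11.9 and 136 FPKM in cK15, against 232, 278 and 258 FPKM in control and did not pass the threshold (log2 fold change -2.08, SE 0.95, limma adjusted p = 0.6204), and here cK15 replicate 3 stood far below the other cK15 libraries. Ptprn2, which encodes a secretory vesicle protein, was at 4.54, 5.03 and 7.498 FPKM in cK15, against 0.138, 0 and 0.0683 FPKM in control and did not pass either (log2 fold change 2.62, SE 0.72, limma adjusted p = 0.0765).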
